A study of Mus musculus with 12 samples.

Results

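The 10 genes described here belong to the hypoxia-inducible factor (HIF) pathway and were followed through kidney ischemia-reperfusion in mice. They were taken by symbol from the 23420 genes of the count table, and comprise 2 oxygen-regulated subunits of HIF (Hif1a and Epas1), 2 of the enzymes that sense oxygen (Egln1 and Egln3) and 6 genes usually described as HIF targets (Vegfa, Adm, Bnip3, P4ha1, Ndrg1 and Ankrd37). All 10 had a row in the table, and 8 of them passed the filter on low counts and were tested among 11664 genes. Adm and Ankrd37 did not pass it.

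The samples were kidneys of 12 male C57BL/6J mice, 4 control kidneys and 8 ischemic kidneys with 20 min of clamping of the renal pedicle and 24 h of reperfusion. Control kidneys were removed at nephrectomy according to the study's methods, although their labels carry the same ischemia protocol. The study's results once name sham surgery as the comparison. For mice with the clamp the methods describe surgery, buprenorphine and, in the nephrectomy procedure, excision of the other kidney. Unless the controls had the same surgery and drugs, effects of these and of ischemia cannot be told apart. The labels give no age, and the methods give only a range of weeks for all mice. For ischemia in the conscious state the methods describe a clamp placed in an earlier operation under ketamine and xylazine, and a short isoflurane sedation each time it was closed or opened, so those mice had also met anaesthetics. The 8 ischemic kidneys carry contradictory labels. The 4 kidneys of ischemia set A have ISCH_ANESTH in their titles and ISCHEMIA conscious in their group field, and the 4 kidneys of ischemia set B have ISCH_CONCIOUS in their titles and ISCHEMIA anesthesia in their group field, so no direction is assigned to anaesthesia here.

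HIF is a transcription factor made of an alpha subunit, such as those encoded by Hif1a and Epas1, and the beta subunit encoded by Arnt. While oxygen is present, the prolyl hydroxylases of the EGLN family (also called PHD enzymes) modify the alpha subunits, which the von Hippel-Lindau protein then marks for degradation. In hypoxia the alpha subunits accumulate, enter the nucleus and bind hypoxia response elements, short DNA motifs with the core ACGTG or GCGTG, near genes for angiogenesis, glucose use, mitophagy and erythropoietin production. This control acts mainly on the protein, which mRNA counts do not measure. In the kidney the Hif1a product is found mostly in tubular cells, and the Epas1 product in endothelial and interstitial cells.

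The motif was looked for in RefSeq promoter windows of GRCm38.p6, each covering 250 bases before to 50 bases after an annotated transcript start. Windows were at hand for 8 of the 10 genes and numbered 9, since Vegfa had 2, and none was at hand for Epas1 and Ndrg1. ACGTG or GCGTG, on either strand, was present in 8 of the 9 windows, compared with 43.8% of all 32851 windows, and ACGTG alone in 7 of the 9, compared with 19.6%. The Bnip3 window held 5 matches, the Ankrd37 window 4, the Hif1a and P4ha1 windows 3 each, the Adm and Egln1 windows 2 each and the Egln3 window 1. The Vegfa window at the start of the gene held none, and the window at a start inside the gene held 2. The Hif1a and Ankrd37 windows also lie at annotated starts well inside the gene bounds, at chr12:73907867 and chr8:45999850. Overlapping matches are counted singly, so that CACGTG, which reads the same on both strands, counts as 2. The promoters below were chosen because they belong to the gene whose RNA rose after ischemia (Hif1a) and to 4 of those whose RNA fell, and show the 250 bases before the start, 5′ to 3′ on the strand of the gene, with the motif matches in capitals. Hif1a lies at chr12:73907617-73907866 on the plus strand, Bnip3 at chr7:138909507-138909756, Egln1 at chr8:124949255-124949504, Egln3 at chr12:54203875-54204124 and the window at the start of Vegfa at chr17:46032378-46032627, all on the minus strand. Matches were thus present both at the gene that rose and at genes that fell. A match is a string of letters and does not show that the factor binds there.
Hif1a: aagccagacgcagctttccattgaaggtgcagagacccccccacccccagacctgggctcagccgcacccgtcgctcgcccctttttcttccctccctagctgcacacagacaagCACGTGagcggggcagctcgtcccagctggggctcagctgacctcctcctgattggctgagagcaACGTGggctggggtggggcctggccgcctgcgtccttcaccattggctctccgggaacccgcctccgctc
Bnip3: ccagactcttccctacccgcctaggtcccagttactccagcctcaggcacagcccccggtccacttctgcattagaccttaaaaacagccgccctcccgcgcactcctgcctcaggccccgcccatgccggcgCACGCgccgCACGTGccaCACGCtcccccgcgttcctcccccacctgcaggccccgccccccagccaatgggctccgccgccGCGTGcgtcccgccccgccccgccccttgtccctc
Egln1: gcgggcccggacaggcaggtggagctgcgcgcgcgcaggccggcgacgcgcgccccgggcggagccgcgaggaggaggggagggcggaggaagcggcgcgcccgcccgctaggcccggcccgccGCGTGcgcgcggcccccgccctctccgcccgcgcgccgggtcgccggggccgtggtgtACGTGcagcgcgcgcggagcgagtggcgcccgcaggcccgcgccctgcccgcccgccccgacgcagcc
Egln3: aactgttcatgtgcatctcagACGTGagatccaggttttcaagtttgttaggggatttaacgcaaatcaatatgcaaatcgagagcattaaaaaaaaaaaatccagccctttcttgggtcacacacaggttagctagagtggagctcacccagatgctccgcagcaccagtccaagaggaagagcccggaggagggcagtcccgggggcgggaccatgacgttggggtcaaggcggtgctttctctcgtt
Vegfa: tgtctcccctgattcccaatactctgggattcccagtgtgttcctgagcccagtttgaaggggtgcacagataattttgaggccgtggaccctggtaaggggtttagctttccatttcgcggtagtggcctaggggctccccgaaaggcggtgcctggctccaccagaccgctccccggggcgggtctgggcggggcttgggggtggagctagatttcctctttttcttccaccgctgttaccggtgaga

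Between 15367342 and 44793350 counts were assigned to genes in each kidney, and levels are given as CPM, the count scaled to that total. Replicate 4 of set B had the lowest total and the lowest mean correlation with the other kidneys of its group across the tested genes (0.845, compared with 0.858 to 0.900 in the other 11 kidneys). As a check of the tissue, 10 of 10 proximal tubule markers were lower in both sets than in the controls (edgeR adjusted p below 0.05), with a summed level of 6626 to 7442 CPM in the controls, 712 to 1338 CPM (set A) and 449.7 to 1404 CPM (set B). Of the endothelial markers, 0 of 9 tested were called in set A and 1, Tek, was lower in set B. Podocyte and fibroblast or pericyte markers had 3 higher members each in both sets. Of the leukocyte markers 2 of 6 tested, Csf1r and Cd3e, were lower in each set and 4 were not called, among them Ptprc with log2 fold changes of 0.38 and 0.57. Their summed level was 46.7 to 66.6 CPM in the controls, 12.3 to 30.6 CPM (set A) and 13.1 to 36.3 CPM (set B), most of which was Csf1r in the controls (51.3 ± 7.81 CPM). The hemoglobin gene Hbb-bs was also lower in each set. Because whole tissue was sequenced, fewer cells of a type and less RNA per cell cannot be told apart, and the part of these marker shifts in the results below was not tested.

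**Figure D1:**
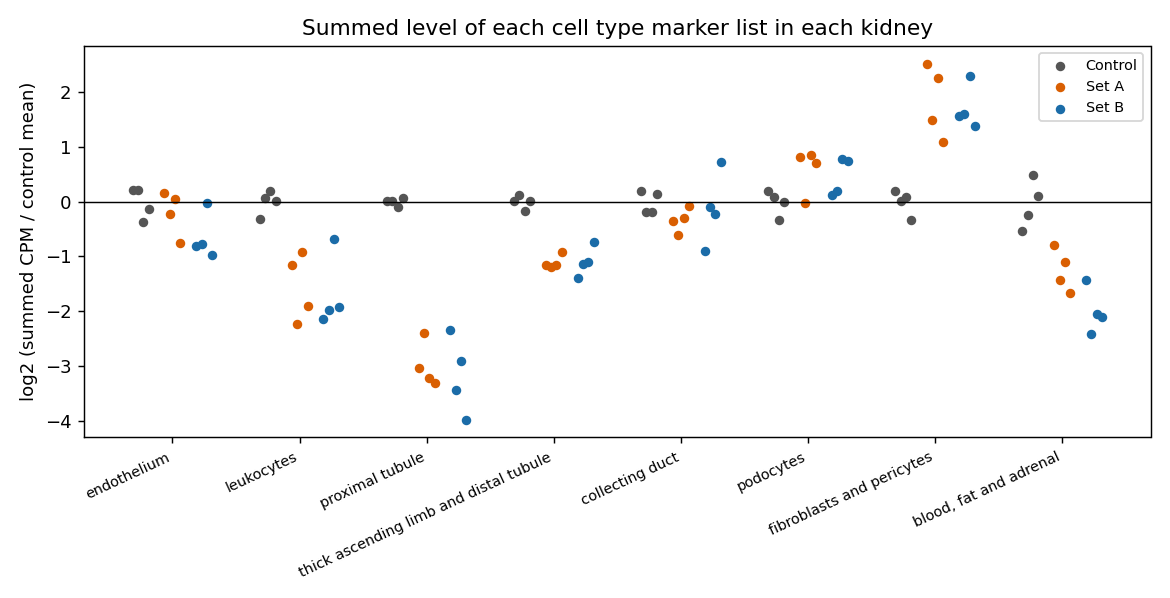
Summed CPM of 8 lists of cell type markers in each kidney, as log2 relative to the control mean (y axis), with a point for each of the 4 kidneys per group. Proximal tubule markers lie far below the controls in all 8 ischemic kidneys. Endothelial markers of set A replicates 1, 2 and 3 and set B replicate 3 lie within the control range, and those of the other ischemic kidneys lie below it.

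Ischemia was followed by opposite shifts of the alpha subunits. Hif1a mRNA was higher in all 8 ischemic kidneys than in any control, by 0.59 (set A) and 0.51 (set B) on the log2 scale, whereas Epas1 mRNA fell in set B, by 0.72, and had a change of -0.37 in set A that missed the threshold. The prolyl hydroxylase Egln1 was lower in set B, and its call in set A (edgeR adjusted p = 0.0467) was lost without any of 5 single kidneys. Of the 4 tested targets, Vegfa and Bnip3 were lower in both sets and Ndrg1 in set A, and none was higher. The call of Ndrg1 in set B (edgeR adjusted p = 0.0229) was lost without any of 3 single kidneys and with DESeq2.

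Of the 8 tested genes, 5 passed the threshold in set A against control (a quasi-likelihood test in edgeR, with p adjusted by Benjamini-Hochberg over all genes and a threshold of 0.05), 1 higher and 4 lower, while 22.3% of all tested genes passed it, 10.5% as higher and 11.7% as lower. In set B against control 7 passed, 1 higher and 6 lower, with 22.8% of all tested genes passing, 10.9% as higher and 11.9% as lower. The median log2 fold change of the 8 genes was -0.40 (set A) and -0.71 (set B), and that of all tested genes was -0.02 in both. Both comparisons use the same 4 controls and are not independent of each other. The groups did not overlap for 4 of the 8 genes in set A (28.5% of all tested genes) and for 5 of the 8 in set B (26.8%). Without replicate 4 of set B the counts of calls were 5 (set A) and 6 (set B).

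**Figure D2:**
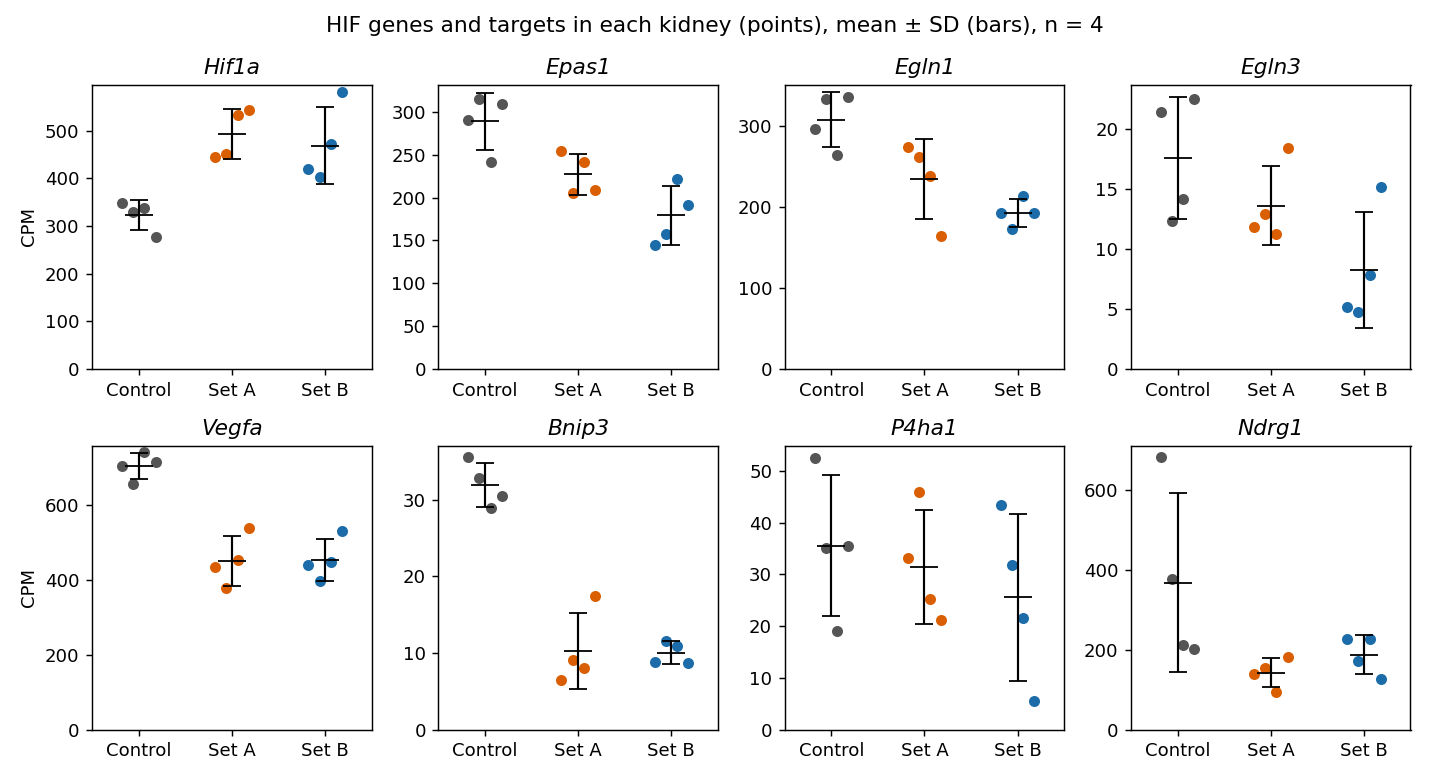
CPM of the 8 tested genes (y axis, from 0) in the 4 kidneys of each group, as points, with the mean and SD as bars. Hif1a is higher in every ischemic kidney than in any control, and Vegfa and Bnip3 are lower in every ischemic kidney.

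Hif1a (ENSMUSG00000021109, GRCm38 chr12:73901375-73947530, plus strand), the subunit with the broadest role in the acute response to low oxygen, had 349, 329, 337 and 278 CPM in the control kidneys. It reached 444, 450.0, 534 and 543 CPM (set A) and 419, 403, 472 and 581 CPM (set B). All 8 ischemic kidneys were above the highest control, and the sets overlapped with each other. The means were 323 ± 31.3 CPM in the controls, 493 ± 52.8 CPM (set A) and 469 ± 80.3 CPM (set B) (SD, n = 4 each). The log2 fold change was 0.59 in set A (SE 0.13, edgeR adjusted p = 0.00210) and 0.51 in set B (SE 0.13, edgeR adjusted p = 0.00626), which is 1.501-fold and 1.43-fold. For each set the two-sided exact permutation test gave p = 0.0286, the smallest possible with 4 kidneys against 4.

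Epas1 (ENSMUSG00000024140, chr17:86753700-86833410, plus strand), which drives erythropoietin production, had 291, 315, 242 and 309.5 CPM in the controls. The values were 254, 206, 241 and 209 CPM (set A) and 145, 157, 222 and 192 CPM (set B). Every kidney of set B was below every control, whereas replicate 1 of set A exceeded replicate 3 of the controls. Epas1 fell by 0.72 on the log2 scale in set B (SE 0.14, edgeR adjusted p = 8.10e-04), or 1.64-fold. In set A the log2 fold change was -0.37 (SE 0.14) and did not pass the threshold, with an edgeR adjusted p of 0.0685 and an exact permutation p of 0.0571. It passed when control replicate 3, set B replicate 1 or set B replicate 3 was left out (edgeR adjusted p = 0.0388, 0.0478 and 0.0447). Endothelial markers, which are of interest for a gene of endothelial cells, summed to 222 to 335 CPM in the controls, 169.97 to 319.6 CPM (set A) and 147 to 282 CPM (set B). Replicate 4 of set A and replicates 1, 2 and 4 of set B lay below the lowest control sum. The part of these markers in the change of Epas1 was not tested.

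The log2 ratio of Hif1a to Epas1 counts within a kidney does not depend on how the libraries are scaled. It was compared after the opposite changes had been seen, and is given as a description. In the controls it was 0.26, 0.06, 0.48 and -0.16, close to equal counts. In set A it was 0.81, 1.13, 1.14 and 1.38, and in set B 1.53, 1.36, 1.09 and 1.60. No ischemic kidney overlapped with the controls, and the mean ratio was 1.94-fold higher in set A and 2.35-fold higher in set B. The sets overlapped, with a difference of 0.28 on the log2 scale.

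**Figure D3:**
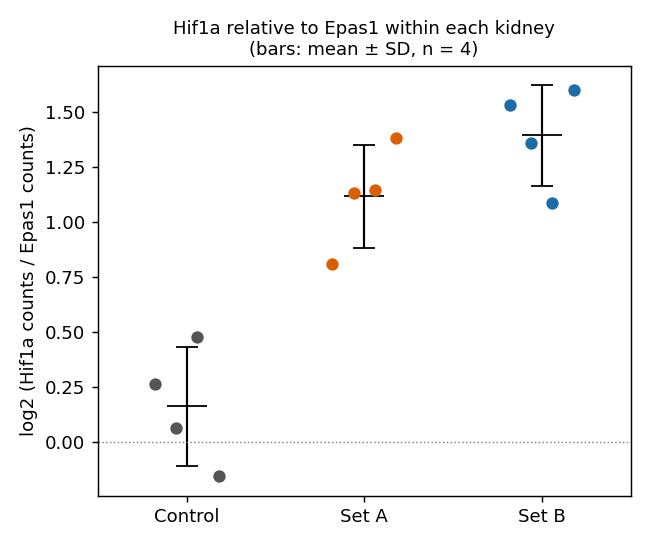
The log2 ratio of Hif1a to Epas1 counts (y axis) in each kidney, with the mean and SD of the 4 kidneys of each group as bars. The control kidneys lie between -0.16 and 0.48 and the 8 ischemic kidneys between 0.81 and 1.60.

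Among the oxygen sensors, Egln1 (ENSMUSG00000031987, chr8:124908587-124949324, minus strand) encodes the hydroxylase that sets HIF levels in most tissues. Control kidneys had 297, 334, 264 and 336 CPM. Set A had 274, 262, 238 and 164 CPM, of which replicate 1 reached into the control range. In set B the values were 192, 172, 213 and 192 CPM, all below the lowest control. Egln1 fell by 0.70 on the log2 scale in set B (SE 0.15, edgeR adjusted p = 0.00138), or 1.63-fold. In set A it fell by 0.42 (SE 0.15, edgeR adjusted p = 0.0467), or 1.34-fold, with an exact permutation p of 0.0571. This call in set A rested on single kidneys, since the edgeR adjusted p was 0.0744, 0.139 and 0.149 without control replicates 1, 2 and 4, and 0.107 and 0.120 without set A replicates 3 and 4.

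Egln3 (ENSMUSG00000035105, chr12:54178981-54203860, minus strand) encodes a second hydroxylase of the family, itself a well known HIF target. It had 21.4, 12.3, 14.2 and 22.5 CPM in the controls, 11.9, 12.9, 11.3 and 18.4 CPM (set A) and 5.15, 4.78, 7.85 and 15.2 CPM (set B), from 77 to 876 counts per kidney. Of set B, replicate 4 lay inside the control range and the other 3 kidneys below it. The log2 fold change was -1.13 in set B (SE 0.40, edgeR adjusted p = 0.0497), or 2.18-fold lower, with an exact permutation p of 0.0857. In set A it was -0.39 (SE 0.40, edgeR adjusted p = 0.603). The call in set B held when control replicate 2, set A replicate 4 or set B replicate 4 was left out and was lost without any of the other 9 kidneys, with an edgeR adjusted p between 0.00525 and 0.139 over the 12 fits. The log2 ratio of Egln3 to Egln1 counts, also chosen after the values were seen, was -4.17 ± 0.44 in the controls, -4.11 ± 0.64 (set A) and -4.71 ± 0.72 (set B) (SD, n = 4), and the groups overlapped.

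Vegfa (ENSMUSG00000023951, chr17:46016993-46032369, minus strand), the main growth factor of blood vessels, had the highest mean level per length of the 8 tested genes in every group, although its range overlapped with that of Hif1a in both ischemic sets. The controls had 704, 658, 741 and 714 CPM. Set A had 435, 378, 452 and 538 CPM and set B 440.2, 397, 449 and 532 CPM. All 8 ischemic kidneys were below the lowest control, and the sets spanned nearly the same range. Vegfa fell by 0.67 on the log2 scale in set A (SE 0.12, edgeR adjusted p = 4.66e-04) and by 0.66 in set B (SE 0.12, edgeR adjusted p = 5.37e-04), which is 1.59-fold and 1.58-fold. The exact permutation p was 0.0286 for each set. Podocytes are a source of VEGF in the kidney, and their markers summed to 239 to 346 CPM in the controls, 296 to 546 CPM (set A) and 326 to 518 CPM (set B), with 3 of 6 higher and none lower in each set. Markers of the thick ascending limb and distal tubule, which also make VEGF, summed to 4130.2 to 5039.7 CPM in the controls, 2028 to 2446 CPM (set A) and 1772 to 2772 CPM (set B), with 3 of 8 lower in set A, 4 of 8 in set B and none higher. Slc12a1 was lower in each set, whereas Umod was not called, with 114 ± 5.58, 129 ± 33.6 and 130 ± 61.3 CPM. The part of these shifts in the change of Vegfa was not tested.

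Bnip3 (ENSMUSG00000078566, chr7:138890836-138909519, minus strand), a mitochondrial outer membrane protein that recruits the machinery of mitophagy, changed most among the tested genes. Control kidneys had 35.6, 32.9, 29.0 and 30.5 CPM. The values were 6.46, 9.07, 8.04 and 17.5 CPM (set A) and 8.89, 11.6, 10.96 and 8.65 CPM (set B). No ischemic kidney reached the control range, with replicate 4 of set A nearest to them. Bnip3 fell by 1.66 on the log2 scale in set A (SE 0.33, edgeR adjusted p = 8.39e-04) and by 1.69 in set B (SE 0.33, edgeR adjusted p = 7.35e-04), or 3.16-fold and 3.23-fold, with an exact permutation p of 0.0286 for each set. Proximal tubule markers moved in the same direction in the same kidneys, with the sums given above, and their part in the fall of Bnip3 was not tested.

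Ndrg1 (ENSMUSG00000005125, chr15:66929318-66969640, minus strand), a cytosolic protein induced by stress and differentiation, varied widely among the controls, with 681, 376, 211 and 203 CPM. In set A it had 139, 155, 94.6 and 182 CPM, all below the lowest control. In set B it had 227, 171, 226 and 126 CPM, and 2 of these kidneys lay inside the control range. Ndrg1 fell by 1.37 on the log2 scale in set A (SE 0.30, edgeR adjusted p = 0.00211), or 2.59-fold, with an exact permutation p of 0.0286. In set B it fell by 0.98 (SE 0.30, edgeR adjusted p = 0.0229), or 1.97-fold, with an exact permutation p of 0.171. Control replicate 1 carried much of that difference, since without it the log2 fold change in set B was -0.53 (edgeR adjusted p = 0.170). The call in set B was also lost without set B replicate 2 (edgeR adjusted p = 0.0519) or set B replicate 4 (edgeR adjusted p = 0.0584).

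P4ha1 (ENSMUSG00000019916, chr10:59323296-59373304, plus strand) encodes the catalytic subunit of collagen prolyl 4-hydroxylase. It had 52.5, 35.01, 19.1 and 35.5 CPM in the controls, 33.2, 46.0, 25.3 and 21.2 CPM (set A) and 43.4, 31.9, 21.5 and 5.47 CPM (set B). The 3 groups overlapped broadly. The log2 fold change was -0.19 in set A (SE 0.43, 95% interval -1.04 to 0.65, edgeR adjusted p = 0.851) and -0.47 in set B (SE 0.43, 95% interval -1.32 to 0.37, edgeR adjusted p = 0.530). Changes within these intervals could not be told from 0 with this spread between kidneys.

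Adm, the gene of the vasodilator peptide adrenomedullin, was listed at 0 in all 12 kidneys. Ankrd37, a small ankyrin repeat protein, had 43 counts in control replicate 3 (1.60 CPM) and 0 in the other 11 kidneys. These zeros cannot be read as absence of the RNA. B2m, which nearly all nucleated cells use and which was looked up after these zeros were seen, had 0 to 43 counts in a kidney, and Ren1, the renin gene of the kidney, had 0 counts in all 12. Gapdh had 26314 to 99852 counts in the same libraries. A count of 3, taken as the detection floor, equals 0.067 to 0.195 CPM and covers counting error only.

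Compared per kilobase of exon, which allows for gene length but not for the limits of counting seen for B2m and Ren1, the order of the levels changed between the groups. In the controls Vegfa was highest with 164 ± 8.11 CPM per kb (SD, n = 4), followed by Egln1 with 85.6 ± 9.47, Ndrg1 with 55.8 ± 33.9, Hif1a with 54.8 ± 5.30 and Epas1 with 51.8 ± 5.95 CPM per kb. From Egln1 to Epas1 each neighbour in this order overlapped with the next, as Ndrg1 spanned all of them. Bnip3 with 14.1 ± 1.27 CPM per kb stood apart from Epas1 above and P4ha1 below, and P4ha1 (8.63 ± 3.32) and Egln3 (6.61 ± 1.92 CPM per kb) overlapped. In the ischemic kidneys Hif1a came second, with 83.6 ± 8.95 CPM per kb in set A and 79.5 ± 13.6 CPM per kb in set B, and overlapped with Vegfa in each set and with Egln1 in set A (Vegfa had 105 ± 15.5 and 106 ± 13.1 CPM per kb). Bnip3 moved to the low end, with 4.53 ± 2.18 CPM per kb in set A and 4.43 ± 0.65 CPM per kb in set B, where it overlapped with Egln3 (5.11 ± 1.24 and 3.09 ± 1.81 CPM per kb).

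Set B was compared directly with set A in the same fit. Of the 8 genes, 0 passed the threshold in edgeR, compared with 1 of all 11664 genes (0.00857%), and 1 of the 8, Epas1, had an unadjusted p below 0.05, compared with 5.03% of all tested genes. Epas1 had a log2 fold change of -0.35 (95% interval -0.62 to -0.07, edgeR unadjusted p = 0.0247 and adjusted p = 0.941), and the kidneys of the sets overlapped. The gene that passed was the proximal tubule marker Slc5a12, a lactate transporter, with 135 ± 17.8 CPM in the controls, 13.7 ± 3.34 CPM (set A) and 49.2 ± 23.4 CPM (set B) (SD, n = 4, edgeR adjusted p = 0.0328 between the sets). This count of 1 was not stable, since it was 0 with limma-trend or with 2 groups only, 27 with DESeq2 and 0 to 7 without 1 kidney. For 0 of the 8 genes were the sets free of overlap, compared with 2.65% of all tested genes. For the other genes the difference of set B from set A was between -0.74 (Egln3, 95% interval -1.52 to 0.05) and 0.40 (Ndrg1, 95% interval -0.19 to 0.98). The narrowest intervals were those of Vegfa, -0.24 to 0.25, and Hif1a, -0.33 to 0.18, and differences within such an interval could not be told from 0. The call of Epas1 or Egln3 in set B alone therefore does not show that the sets differed.

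**Figure D4:**
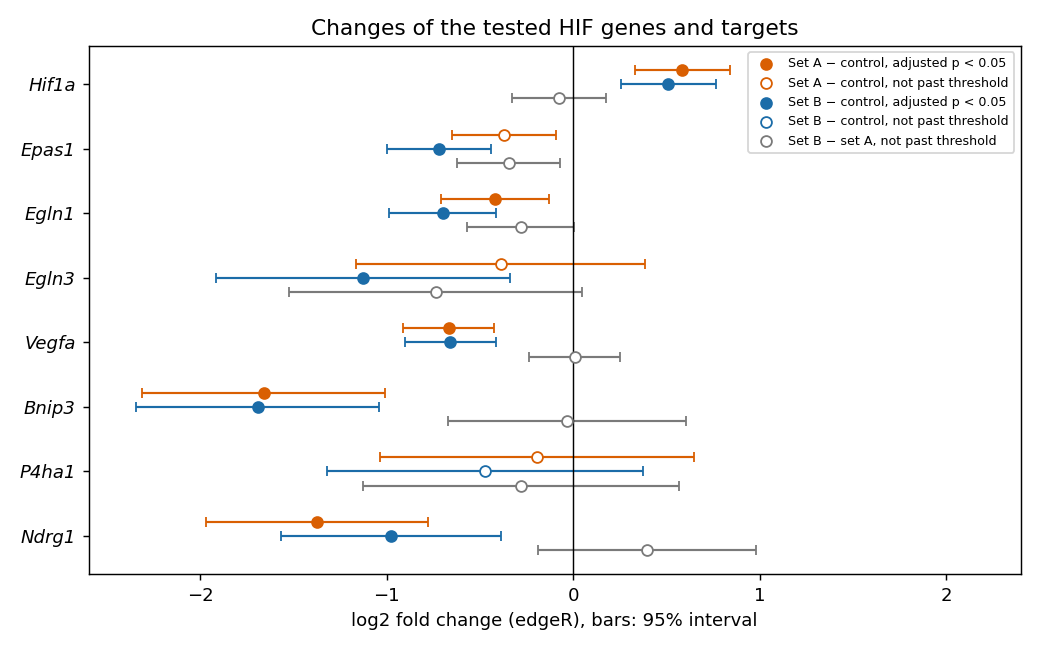
The log2 fold change from edgeR (x axis) of the 8 tested genes for either set against the controls and for set B relative to set A, with 95% intervals as bars and filled points for an adjusted p below 0.05. Only Hif1a lies above 0 against control, and all 8 differences between the sets are open points.

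Relations between the HIF subunits and the other genes were examined over the 8 ischemic kidneys, since the controls lie apart. Of 13 relations computed, 0 had a Benjamini-Hochberg adjusted p below 0.05, and 3 had an unadjusted exact permutation p below 0.05. Hif1a went with Vegfa (Pearson r = 0.80, exact permutation p = 0.0145, adjusted 0.0943, Spearman rho = 0.74, exact p = 0.0458) and with Egln3 (r = 0.78, exact permutation p = 0.0276, adjusted 0.120, rho = 0.79, exact p = 0.0279). It went against P4ha1 (r = -0.77, exact permutation p = 0.00630, adjusted 0.0819, rho = -0.71, exact p = 0.0576). Without replicate 4 of each set, the kidneys farthest from the median of Hif1a, r was 0.39, 0.59 and -0.58, so the relation with Vegfa rested largely on these kidneys. With values centred on the mean of each set, r was 0.84, 0.85 and -0.91, and each set of 4 kidneys is too small for an r of its own. Hif1a and Epas1 had r = 0.38 (exact permutation p = 0.341).

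As a description of what moved most like each gene, the root mean square difference of centred log2 CPM over the 12 kidneys was taken for 11656 other genes. Nearest to Hif1a were Mapkapk2 (0.108), a kinase downstream of p38, and Apc (0.112). Egln1 was followed most closely by Nme2 (0.0972), a nucleoside diphosphate kinase, and the mitochondrial protease gene Lonp1 (0.128). Vegfa had Ireb2 (0.114), which encodes an iron regulatory protein, and Glg1 (0.125) as neighbours. Epas1 was nearest to Txndc5 and Ttc7 (0.173 each), and Bnip3 to Kcnj15 (0.239), a potassium channel, and Ift122 (0.271). The neighbours of Egln3, P4ha1 and Ndrg1 were more distant, at 0.348 to 0.415.

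Beyond these genes, 85 others of the pathway were read from lists, 70 of which were tested. In set A against control 8 were higher, 13 lower and 49 not called at an edgeR adjusted p below 0.05, and the median log2 fold change was -0.04. In set B 9 were higher, 10 lower and 51 not called, with a median of -0.16. The shares called, 21 of 70 and 19 of 70, stand beside 22.3% and 22.8% of all tested genes. None of the 70 was called between the sets.

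**Figure D5:**
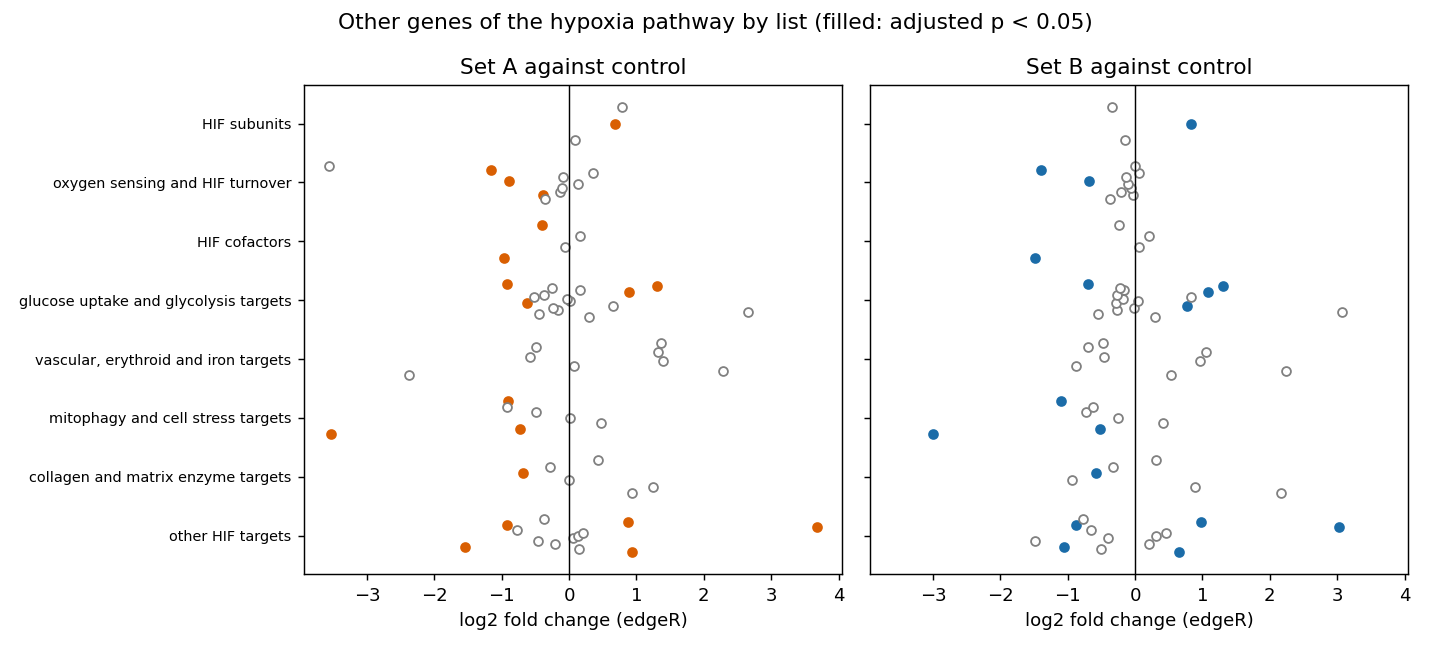
The log2 fold change from edgeR (x axis) of the tested genes of 8 hypoxia pathway lists, each point a gene, in set A (left) and set B (right) against control, filled where the adjusted p was below 0.05. Genes at or under 3 counts in every control kidney, such as Hk2, are left out, since a fitted fold then depends on the prior count.

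Of the other HIF subunits, 1 of 3 was called in each set. Arnt2, a partner of the alpha subunits that is best known in neurons, rose from 54.4 ± 10.8 CPM in the controls to 89.4 ± 14.1 CPM (set A) and 99.2 ± 18.3 CPM (set B) (SD, n = 4), with log2 fold changes of 0.69 and 0.84 (edgeR adjusted p = 0.0117 and 0.00278). Arnt, the general partner, was not called, with 67.5 ± 4.37, 72.7 ± 10.05 and 61.4 ± 12.6 CPM. In the list of oxygen sensing and HIF turnover, set A had 3 of 10 genes lower and set B 2, with none higher. Siah2, a ubiquitin ligase that degrades the EGLN hydroxylases, fell from 62.2 ± 15.97 CPM to 28.5 ± 6.17 CPM (set A) and 24.1 ± 4.48 CPM (set B) (edgeR adjusted p = 0.001203 and 2.20e-04). Os9, a lectin of the endoplasmic reticulum, fell from 63.2 ± 11.3 CPM to 34.7 ± 5.01 and 40.0 ± 8.10 CPM.

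Among 4 tested cofactors, set A had 2 lower and set B 1. Cited2, which competes with HIF for the coactivators CBP and p300 and is itself a HIF target, fell from 403 ± 81.7 CPM in the controls to 210 ± 45.4 CPM (set A) and 147 ± 33.0 CPM (set B) (SD, n = 4), by 0.96 and by 1.48 on the log2 scale (edgeR adjusted p = 4.35e-04 and 4.43e-06). For Cited2 no ischemic kidney reached the control range.

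Glucose uptake and glycolysis genes went both ways, with 3 of 17 higher and 2 lower in set A and 4 higher and 1 lower in set B. Slc2a1, the glucose transporter GLUT1, rose from 91.8 ± 6.17 CPM to 230.3 ± 33.8 CPM (set A) and 232 ± 40.8 CPM (set B), by 1.31 on the log2 scale in each set (edgeR adjusted p = 1.71e-06 and 1.80e-06). Hexokinase Hk2 had 0 or 1 counts in each control kidney and 23.5 ± 9.18 CPM (set A) and 17.1 ± 5.46 CPM (set B). Pfkp, the platelet isoform of phosphofructokinase, rose with log2 fold changes of 0.89 and 1.08 (edgeR adjusted p = 0.0445 and 0.0157), and set A overlapped with the controls. Tpi1, triosephosphate isomerase, was lower in each set, with 227 ± 28.6, 122 ± 39.5 and 142 ± 18.7 CPM.

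In the vascular, erythroid and iron list the median log2 fold change was 1.34 (set A) and 0.75 (set B) over 10 tested genes, most of which missed the threshold. Several of them had low levels, with control means of 0 CPM for Edn1, 0.80 CPM for Trf and 0.95 CPM for Angptl4. The median alone therefore does not show a rise of the list. Epo was listed at 0 in all 12 kidneys, which carries the limit given above for Adm. Of the mitophagy and cell stress list 3 of 7 tested genes were lower in each set and none was higher. Bnip3l, the paralog of Bnip3 with a similar role, fell from 140 ± 16.8 CPM to 86.0 ± 9.71 CPM (set A) and 99.8 ± 22.01 CPM (set B), with log2 fold changes of -0.73 and -0.51 (edgeR adjusted p = 0.00261 and 0.0286). Ak4, a mitochondrial adenylate kinase, fell from 17.5 ± 1.59 CPM to 1.51 ± 1.65 and 2.23 ± 1.203 CPM, and Mxi1, an antagonist of MYC, from 96.0 ± 9.54 CPM to 52.3 ± 8.99 and 45.8 ± 7.41 CPM.

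Collagen and matrix enzymes had 1 of 6 called in each set. P4hb, the partner of P4ha1 in collagen prolyl 4-hydroxylase, fell from 124 ± 7.43 CPM in the controls to 78.1 ± 14.6 CPM (set A) and 84.4 ± 10.9 CPM (set B) (edgeR adjusted p = 0.00316 and 0.0117), while fibroblast and pericyte markers summed to 515 to 739, 1373 to 3717 and 1692 to 3172 CPM, whose part in this change was not tested. In the list of other targets 3 of 13 were higher and 2 lower in each set. Plin2, which coats lipid droplets, rose from 10.6 ± 0.50 CPM to 138 ± 21.4 CPM (set A) and 87.6 ± 18.7 CPM (set B), by 3.69 and 3.03 on the log2 scale (edgeR adjusted p = 1.32e-10 and 1.25e-09). Car12, a carbonic anhydrase of the cell surface, fell from 305 ± 24.9 CPM to 106 ± 35.1 and 149 ± 21.9 CPM, and Wsb1, part of a ubiquitin ligase, rose from 33.9 ± 6.31 CPM to 63.0 ± 18.3 and 68.1 ± 18.7 CPM.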

How the data were processed

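The authors prepared stranded mRNA libraries from whole kidney RNA, sequenced single reads and aligned these with STAR to the mm10 genome. Per-gene counting was done with HTSeq. The deposited values are raw counts per gene, not normalized. Tool versions, the annotation release and the strand setting of the counting are not given in the sources used here.

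The 10 genes and all gene lists were chosen with earlier results of these data known. Counts were tested with edgeR 4.0.16 (R 4.3.3): default low-count filter (minimum count 10, minimum total 15), TMM, 1 model of 3 groups over 12 kidneys, two-sided quasi-likelihood F-tests, and Benjamini-Hochberg adjustment over 11664 genes with a threshold of 0.05. Single genes were also compared by exact permutation of CPM (NumPy 2.4.6, SciPy 1.17.1). The edgeR p-values weigh a group difference against the spread between kidneys, estimated over the 3 groups and moderated across genes. Permutation p-values place the observed difference among all regroupings of the same kidneys. Total counts of the kidneys were 15367342 to 44793350. Levels per kb used GENCODE exon lengths on GRCm38. Of each pathway list, up to 3 genes with the largest mean change among those called in both sets were named, and of all genes the 2 nearest in pattern to each member. Arnt, Tpi1, Epo, Tek, Slc5a12, Csf1r, Cd3e, Ptprc, Slc12a1, Umod, Hbb-bs, B2m, Ren1 and Gapdh were named after their values were seen. So were Hmox1, Egln2, Kdr, Flt1, Edn1, Trf and Angptl4. Alternatives were DESeq2 1.42.0, limma-trend 3.58.1, RLE or no scaling factors, other filters, 2 groups only, the replicate number as a block, and leaving out each kidney. A gene of the vascular list is not reported here. The procedure was tested on simulated data.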

Additional observations from a re-analysis of the deposited data

Results flagged for a closer look

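In 4 of 68 groups of 4 kidneys examined over the named genes, 1 kidney lay far from the other 3 (Dixon's test at the 95% level, which chance meets in about 1 of 20 groups). Slc2a1 in set A had 281 CPM in replicate 4 and 208 to 216 CPM in the other kidneys. Siah2 in the controls had 86.0 CPM in replicate 4 and 51.8 to 55.8 CPM in the others. Mxi1 in the controls had 81.8 CPM in replicate 1 and 98.9 to 102 CPM in the others. Hk2 in the controls had 0.0373 CPM, a single count, in replicate 3 and 0 in the others. None of these 4 values belongs to the 10 genes of the report.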

How the results depend on the processing

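Hif1a, Vegfa and Bnip3 in both sets, Ndrg1 in set A, and Epas1 and Egln1 in set B kept their direction and an adjusted p below 0.05 in all 12 fits that left out 1 kidney and in all 8 other settings. Leaving out 1 kidney gave 4 to 6 members called in set A, 5 to 7 in set B, and the other settings 4 to 5 and 6 to 7. Egln1 in set A lost its call with RLE factors (adjusted p = 0.0585), no TMM (0.0693), a filter of more than 1 CPM in 4 kidneys (0.0642) and 2 groups only (0.0758), Egln3 in set B with 5 of 8 settings, and Ndrg1 in set B with DESeq2 (0.0710). The cause was not tested. Of all genes, set B against set A called 1, and 6 with no low-count filter, 0 with 2 groups only, 0 with limma-trend, 27 with DESeq2 and 0 to 7 without 1 kidney. The replicate numbers of the titles did not pair the kidneys (correlations of deviations -0.055 to 0.045, and 2 of 12 kidneys closest to their own number). With the replicate number as a block, 4 and 7 members were called in set A and set B, the adjusted p of Egln1 in set A was 0.0609, and Bnip3 in set B against set A was 0.037 (log2). Differences near 0 changed sign. Without 1 kidney the log2 fold change of P4ha1 was -0.43 to 0.043 in set A against control and -0.67 to 0.057 between the sets, where that of Vegfa was -0.071 to 0.11 and that of Bnip3 -0.21 to 0.37 (0.063 with limma-trend). Without 1 kidney, r of Epas1 and Bnip3 was -0.59 to 0.038, of Hif1a and Bnip3 -0.32 to 0.39, of Epas1 and Vegfa -0.085 to 0.17, and of Epas1 and P4ha1 -0.50 to 0.20. The log2 ratio of Egln3 to Egln1 in set A against control, added after the data were seen, was -0.26 to 0.20. Depth limits genes under about 0.2 CPM.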

Other observations

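The receptors of VEGF, which are endothelial genes and were looked at after the values of Vegfa were seen, did not pass the threshold in either set. Kdr had 40.5 ± 0.9996 CPM in the controls, 27.5 ± 4.57 CPM (set A) and 29.9 ± 7.03 CPM (set B) (SD, n = 4), and all 8 ischemic kidneys were below all controls (edgeR adjusted p = 0.0726 and 0.162). Flt1 had 10.5 ± 2.20, 11.3 ± 3.85 and 5.81 ± 0.30 CPM in the same groups, with all kidneys of set B below all controls (edgeR adjusted p = 0.948 and 0.142). Hmox1, a heme-degrading enzyme regulated by HIF and other stress factors, had 4.74 ± 1.88 CPM in the controls, 12.7 ± 9.64 CPM (set A) and 9.48 ± 4.58 CPM (set B), with overlapping ranges (edgeR adjusted p = 0.0796 and 0.245). Egln2, the remaining hydroxylase of the family, was lower in set A (292 ± 24.5 CPM in the controls and 227 ± 22.9 CPM in set A, edgeR adjusted p = 0.0415) and had 291 ± 50.7 CPM in set B (edgeR adjusted p = 0.924). All kidneys of set B were above all of set A for Egln2, but the difference between the sets did not pass the threshold (log2 fold change 0.36 in set B against set A, SE 0.13, edgeR adjusted p = 0.930).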
